A study of Mus musculus with 6 samples.

Results

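The Smad genes and the TGF-beta receptors were described in progenitors of mouse bone marrow separated into GFP-positive and GFP-negative cells. GFP, a green fluorescent protein, was carried at Hes1, a gene induced by Notch signalling. The genes are Smad1, Smad2, Smad3, Smad4, Smad5, Smad6, Smad7, Smad9, Tgfbr1 and Tgfbr2. They were represented by all 24 probe sets whose platform annotation names exactly 1 of these 10 symbols, of 45037 probe sets tested in all. The genes were chosen by their log2 differences between GFP-positive and GFP-negative arrays, the same values described below, so these are given as a description and without p-values.

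Both groups came from 6-week-old male mice of genotype Hes1 GFP/WT, and in both the cells were lineage negative, cKit+ and Sca1-, the surface phenotype of myeloerythroid progenitors. The labels separate the groups by GFP signal alone. Affymetrix expression arrays were run on 3 GFP-negative samples (N1, N2 and N3) and 3 GFP-positive samples (P1, P2 and P3), and values are given in that order. All animals carried 1 reporter allele, and no array came from cells without it. Whether the 3 samples of a group come from separate animals is not in the labels, so spread and p-values cover these 6 samples only and may be technical, with a precision set by their small number. Values are log2 of the deposited probe set intensity, with errors as SD of 3 arrays, and differences are GFP-positive minus GFP-negative. A log2 level depends on the probes, so levels were compared between arrays and not between genes.

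TGF-beta ligands bind the type II receptor Tgfbr2, which recruits and activates the type I receptor kinase Tgfbr1. Activated type I receptors phosphorylate receptor Smads: Smad2 and Smad3 downstream of TGF-beta and activin, and Smad1, Smad5 and Smad9 downstream of bone morphogenetic proteins (BMPs). Phosphorylated receptor Smads join the common partner Smad4 and enter the nucleus to regulate target genes, while Smad6 and Smad7 inhibit the pathway and are themselves among its targets. In blood formation TGF-beta is best known for restraining the growth of early progenitors.

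As a check of the labels, Hes1 itself had a log2 intensity of 5.74, 6.01 and 5.90 in GFP-negative arrays and 7.20, 7.12 and 7.13 in GFP-positive arrays. Median log2 intensities of the arrays lay between 5.90 and 6.02, and a probe set under the array median is called dim here. Kit, on which the cells were sorted, read 11.31, 11.53 and 11.42 in GFP-negative arrays and 11.14, 11.24 and 11.13 in GFP-positive arrays. The groups did not overlap, with a difference of -0.25 (limma adjusted p = 0.138). Ly6a, which encodes Sca-1, was not analysed here. Among genes that mark the lineages these progenitors form, all 6 erythroid genes matched were higher in GFP-positive arrays (summed intensity 43071 to 47031, against 28136 to 28711 in GFP-negative arrays), and all 7 granulocyte and monocyte genes matched were lower (19401 to 24562, against 46078 to 48561), with none of these 13 genes dim on any array. Jchain, a gene of antibody-secreting cells, was at 8.85 in N3 and 8.65 in P1, against 3.64 to 4.08 elsewhere. Counts are therefore also given without N3 and P1. Of the other lineage lists, limma called 1 of 5 megakaryocyte genes higher (summed intensity 5334 to 6359 in GFP-positive arrays, against 3879 to 4849). The gene called was Vwf and not Pf4, the brightest of the 5, and 2 of the 5 had a lower mean. Limma called 1 of 6 B and plasma cell genes lower (573 to 1102 against 1616 to 2397), though 4 of the 6 had a higher mean. It called 2 of 6 stromal and endothelial genes lower (443 to 594 against 999 to 1226), and 3 of the 6 had a higher mean. Of 5 mature myeloid genes 0 were called, but all 5 had a higher mean (6223 to 17235 against 2663 to 7064). Among T and natural killer cell genes 0 of 5 were called (342 to 441 against 366 to 597). In bulk RNA, fewer cells of a type and less RNA per cell cannot be told apart.

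The Smad and receptor genes were mostly lower in GFP-positive cells. Of the 24 probe sets, 20 had a lower mean in GFP-positive arrays and 4 a higher one. The median log2 difference was -0.60, where the median over all probe sets was 0.09. In 14 of the 24, every GFP-positive array lay below every GFP-negative array, a pattern found in 14.2% of all probe sets. The reverse was found in 1 of the 24, a dim Tgfbr2 probe set, and in 24.3% of all probe sets. Across the whole table, limma with Benjamini-Hochberg adjustment (threshold 0.05) called 7.66% of probe sets lower and 6.35% higher, 14.0% in all. Of the 24, it called 11 lower and 0 higher. With array medians subtracted, 61.5% of all calls were higher in place of 45.3%, and the 24 still had 11 lower and 0 higher calls.

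The 11 calls belong to 7 genes: Smad1, Smad3, Smad4, Smad5, Smad6, Smad7 and Tgfbr2. Leaving out N2 gave 7 calls and leaving out P2 gave 6. Leaving out N3 and P1 together gave 4, among them 3 of the 11, for the second brightest probe set of Smad4 and the brightest of Smad5 and Tgfbr2. Both Smad1 calls were among those lost. These 3 probe sets were called lower in each of the 14 alternative fits, which all draw on the same 6 arrays. As the genes were chosen by these values, the calls are a description and not a test. Of the 16 probe sets above the array median on all 6 arrays, 15 were lower in GFP-positive arrays and 10 were called, where 12.1% of all such probe sets in the table were called lower. The 6 probe sets that were dim on every array had a median difference of 0.06, with 3 below 0 and 3 above.

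**Figure D1:**
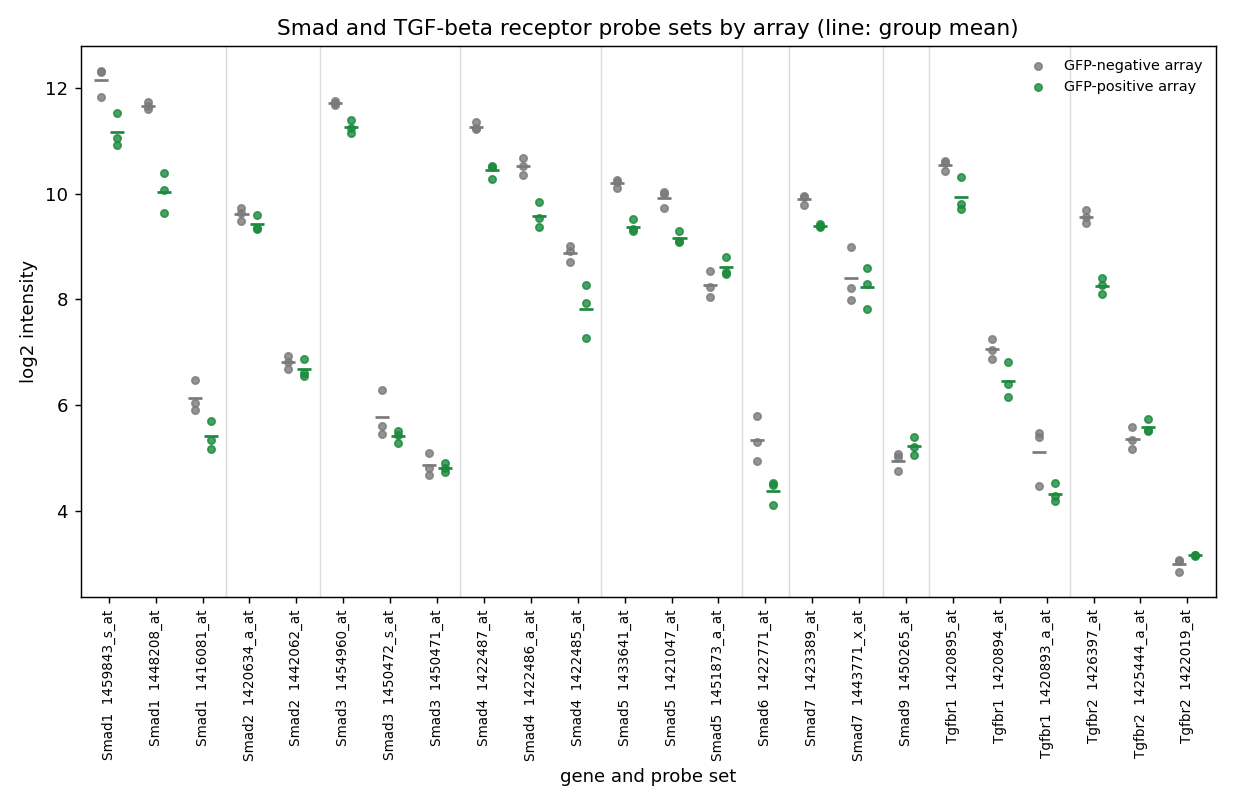
Log2 intensity (vertical axis) of each Smad and TGF-beta receptor probe set (horizontal axis) in the 3 GFP-negative (grey) and 3 GFP-positive (green) arrays, with a line at each group mean. The groups are fully separated, with GFP-positive arrays lower, in 14 of 24 probe sets, among them all 3 of Smad1, all 3 of Smad4 and the brightest of Tgfbr2.

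RefSeq promoter windows of GRCm38.p6 were matched for 7 of the 10 genes. The windows of Smad1 and Tgfbr2 are shown because these genes had the largest differences. That of Smad3 is shown because its difference was smaller (-0.45 in its brightest probe set). Smad9, whose window is not shown, had a smaller difference still (0.27). Each runs over the 250 bases before the annotated start, 5′ to 3′ on the gene's strand. Capitals mark the GC box GGGCGG and the RBPJ motif TGGGAA on either strand, RBPJ being the DNA-binding partner of Notch.
Smad1 (chr8:79399429-79399678, minus strand): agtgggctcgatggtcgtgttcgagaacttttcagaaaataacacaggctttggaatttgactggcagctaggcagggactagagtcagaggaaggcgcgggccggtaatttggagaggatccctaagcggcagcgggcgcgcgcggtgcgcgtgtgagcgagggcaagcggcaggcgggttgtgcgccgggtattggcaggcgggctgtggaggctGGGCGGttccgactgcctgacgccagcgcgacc
Tgfbr2 (chr9:116175364-116175613, minus strand): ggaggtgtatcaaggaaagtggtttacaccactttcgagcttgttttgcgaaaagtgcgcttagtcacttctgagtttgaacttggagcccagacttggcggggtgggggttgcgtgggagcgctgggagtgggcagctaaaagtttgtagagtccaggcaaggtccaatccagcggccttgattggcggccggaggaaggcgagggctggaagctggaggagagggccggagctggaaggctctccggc
Smad3 (chr9:63757995-63758244, minus strand): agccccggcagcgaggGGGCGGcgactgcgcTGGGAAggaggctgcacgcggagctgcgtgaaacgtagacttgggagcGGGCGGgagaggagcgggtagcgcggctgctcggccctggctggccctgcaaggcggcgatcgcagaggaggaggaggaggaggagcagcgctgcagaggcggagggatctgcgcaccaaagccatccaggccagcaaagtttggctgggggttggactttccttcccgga
The Smad1 window holds 25 CpG dinucleotides, the Smad3 window 22 and the Tgfbr2 window 12, where the median over 32817 windows of the same length is 6. GGGCGG was found at 1 position before Smad1, at 2 before Smad3 and at none before Tgfbr2, and it occurs in 32.7% of all windows. TGGGAA was found at 1 position before Smad3 and in neither of the others, and it occurs in 21.6% of all windows. The GATA motif AGATAA (9.99% of all windows), the Smad motif CAGACA (17.1%) and the BMP Smad motif GGCGCC (9.59%) were searched on both strands and were found in none of these 3 windows. Windows of this group that are not shown do hold them: the BMP Smad motif before Smad5, Smad9 and Tgfbr1, the Smad motif before Tgfbr1, and the GATA motif before Smad5. A match is a description of letters and not a binding site.

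Of the 2 receptors, Tgfbr2, which binds the ligand, had the larger difference. Its brightest probe set read 9.45, 9.56 and 9.70 in GFP-negative arrays and 8.41, 8.11 and 8.27 in GFP-positive arrays. The GFP-positive arrays were all lower, by more than a log2 unit even between the closest arrays of the 2 groups. The means were 9.57 ± 0.13 and 8.26 ± 0.15, a difference of -1.31, or 2.47-fold lower, and it lay between -1.38 and -1.23 with any 1 array left out. The other Tgfbr2 probe sets were dim on every array and differed in the other direction, by 0.23 and 0.17. The brighter of these had overlapping groups. The other had levels of 3.04, 2.85 and 3.07 against 3.16, 3.17 and 3.15.

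Tgfbr1, the type I receptor kinase, had 3 probe sets with differences of -0.60, -0.60 and -0.78, and limma called none of them. The brightest read 10.43, 10.59 and 10.61 in GFP-negative arrays and 9.70, 9.81 and 10.33 in GFP-positive arrays. P3 lay close to the GFP-negative arrays, and the groups did not overlap. The next read 7.25, 7.05 and 6.88 against 6.41, 6.15 and 6.82, again with P3 highest of its group. Without that array limma called both lower, with differences of -0.79 and -0.78. The last probe set, dim on every array, was called lower without N3, where the difference was -1.10.

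Smad1, a receptor Smad of the BMP branch, had the largest difference of the 24 probe sets. Its second brightest probe set read 11.73, 11.61 and 11.67 in GFP-negative arrays and 10.07, 9.63 and 10.40 in GFP-positive arrays. The GFP-negative arrays were nearly equal and the GFP-positive arrays spread more widely below them. The means were 11.67 ± 0.06 and 10.03 ± 0.38, a difference of -1.64, or 3.11-fold lower, between -1.82 and -1.44 with 1 array left out. The brightest read 11.83, 12.32 and 12.30 against 10.93, 11.05 and 11.53, a difference of -0.98. Its identifier carries the suffix that marks probes shared with other transcripts, and its call was lost on leaving out N2, N3, P1 or P2. The third, near the array median, read 6.48, 5.91 and 6.04 against 5.34, 5.18 and 5.71, a difference of -0.73 that was not called. All 3 Smad1 probe sets separated the groups in the same direction.

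Smad5, a close relative of Smad1, was lower in 2 of its 3 probe sets. The brightest read 10.21, 10.11 and 10.26 in GFP-negative and 9.53, 9.33 and 9.29 in GFP-positive arrays, with means of 10.20 ± 0.07 and 9.38 ± 0.13 (1.76-fold lower). The next read 10.04, 9.73 and 9.99 against 9.30, 9.08 and 9.10, a 1.70-fold lower level. Both showed the GFP-positive arrays together below all GFP-negative arrays. The third read 8.05, 8.23 and 8.54 against 8.49, 8.52 and 8.81, a difference of 0.33 with overlapping groups. It was above the array median on all 6 arrays. Smad9, the third receptor Smad of this branch, was dim on every array (5.07, 4.76 and 5.02 against 5.21, 5.06 and 5.41) and differed by 0.27, with overlapping groups.

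The receptor Smads of the TGF-beta and activin branch had smaller differences than Smad1 and the 2 called probe sets of Smad5. Against Smad9 (0.27) and the third Smad5 probe set (0.33) they were not all smaller in size. The brightest Smad3 probe set was larger (-0.45), and both Smad2 probe sets were smaller. The branches were not compared by a test. Smad2 read 9.73, 9.48 and 9.64 in GFP-negative and 9.60, 9.34 and 9.35 in GFP-positive arrays. The groups overlapped, with means of 9.61 ± 0.12 and 9.43 ± 0.15 and a difference of -0.19. Its other probe set differed by -0.13 with overlapping groups, and by 0.04 after quantile normalization was repeated. Neither was called, which does not show that Smad2 is equal in the groups.

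Smad3 was lower in its bright probe set, which read 11.76, 11.67 and 11.71 in GFP-negative and 11.39, 11.24 and 11.14 in GFP-positive arrays. The 3 GFP-positive arrays lay just below the GFP-negative arrays, which agreed within 0.1. The means were 11.71 ± 0.05 and 11.26 ± 0.13, a 1.37-fold lower level. This probe set stayed called only on leaving out P1 when 1 array was left out. The other Smad3 probe sets had differences of -0.37 and -0.04, both with overlapping groups. The second changed sign when array medians were subtracted (0.03).

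Smad4, the partner shared by both branches, was lower in all 3 probe sets. The brightest read 11.22, 11.35 and 11.25 in GFP-negative and 10.53, 10.51 and 10.29 in GFP-positive arrays. The means were 11.27 ± 0.07 and 10.44 ± 0.14, a 1.78-fold lower level, with a difference between -0.87 and -0.75 when 1 array was left out. The next read 10.36, 10.69 and 10.52 against 9.84, 9.54 and 9.37, a 1.92-fold lower level. In both, each GFP-positive array was below each GFP-negative array. The third read 9.01, 8.72 and 8.91 against 8.28, 7.93 and 7.27, with P3 well below its group. Its difference was -1.05, and it lost its call without N1, N2 or N3 or P2.

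The inhibitory Smads had 3 probe sets, of which 2 were called lower, where 7.66% of all probe sets were. Smad7, which blocks the type I receptor and recruits ubiquitin ligases to it, read 9.94, 9.79 and 9.96 in GFP-negative and 9.42, 9.39 and 9.37 in GFP-positive arrays. The GFP-positive arrays were almost equal, at 9.39 ± 0.03 against 9.89 ± 0.09, a 1.41-fold lower level. The call was lost on leaving out N3, P2 or P3. The other Smad7 probe set varied widely within the GFP-negative group, at 8.21 in N1, 7.99 in N3 and higher than N3 by 1.01 in N2, and read 7.83, 8.60 and 8.30 in GFP-positive arrays, with overlapping groups. Smad6, which mainly inhibits the BMP branch, had a single probe set that was dim on every array. It read 5.30, 5.80 and 4.94 in GFP-negative and 4.49, 4.53 and 4.12 in GFP-positive arrays. Its difference was -0.97 and, with 32 added to each intensity before the log, -0.47 and not called. With 1 array left out it was called only without N3.

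**Figure D2:**
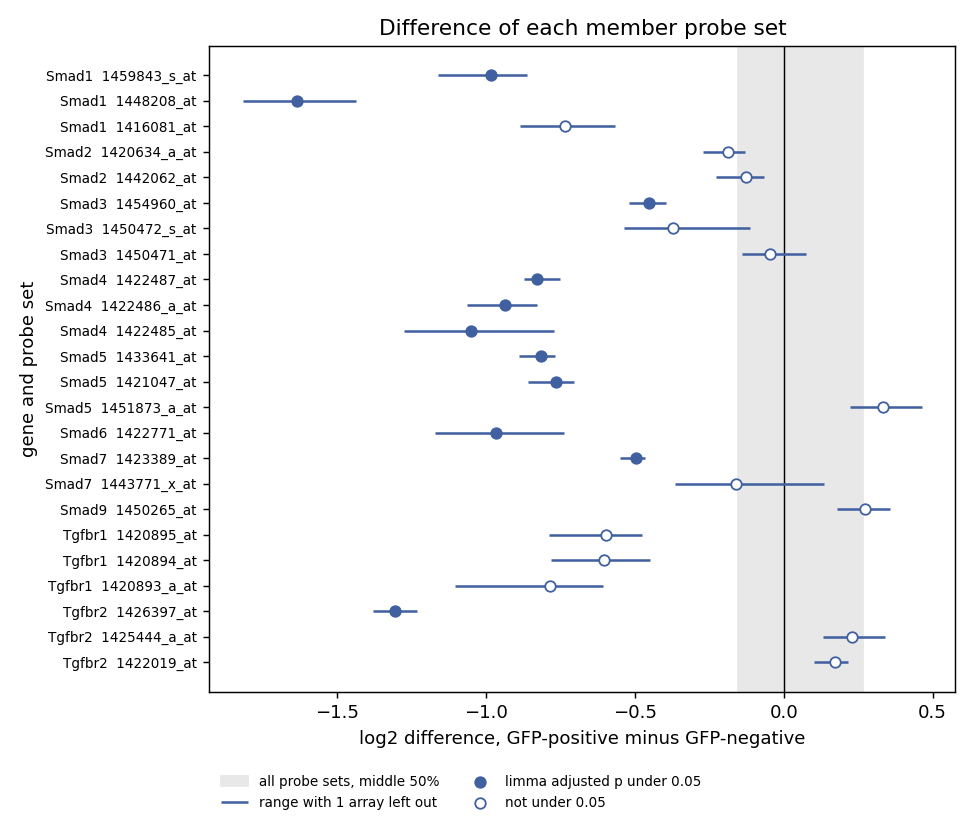
Log2 difference, GFP-positive minus GFP-negative (horizontal axis), of each Smad and TGF-beta receptor probe set (vertical axis), with its range over the 6 fits that leave out 1 array. Filled points passed the limma threshold over all probe sets, and the grey band holds the middle 50% of all probe sets. Smad1 (-1.64) and Tgfbr2 (-1.31) lie farthest to the left, and probe sets of Tgfbr2, Smad5 and Smad9 lie to the right of 0.

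Side by side, the brightest probe sets differed by -0.98 for Smad1, -0.82 for Smad5, -0.83 for Smad4, -0.45 for Smad3 and -0.19 for Smad2. Those of the inhibitory Smads differed by -0.97 for Smad6 and -0.50 for Smad7, and those of the receptors by -1.31 for Tgfbr2 and -0.60 for Tgfbr1. Smad9 was the exception at 0.27. Of these 10 probe sets, 8 had GFP-positive arrays wholly below GFP-negative arrays, a pattern found in 16.7% of all genes, and none had the reverse, found in 28.9%. Differences between genes in this order were not tested.

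Within the GFP-positive group the genes did not share an order of arrays. For the Smad1 probe set of largest difference the order from high to low was P3, P1, P2, and for the brightest P3, P2, P1. The third Smad1 probe set and the second brightest of Tgfbr1 also ran P3, P1, P2. Csf1r, a monocyte growth factor receptor, ran P3, P1, P2, at 9.55, 8.91 and 8.08. Of the other granulocyte and monocyte genes, Mpo and Irf8 shared this order. Elane, Prtn3 and Ly86 ran P1, P3, P2, and Csf3r ran P2, P1, P3. Some gaps were small, as for Ly86 at 10.53 in P1 and 10.51 in P3. For all 3 Smad4 probe sets P3 was the lowest. The erythroid gene Epor, the erythropoietin receptor, lay between 10.30 and 10.43 in these arrays. The part of the lineage markers in the Smad and receptor differences was not tested.

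**Figure D3:**
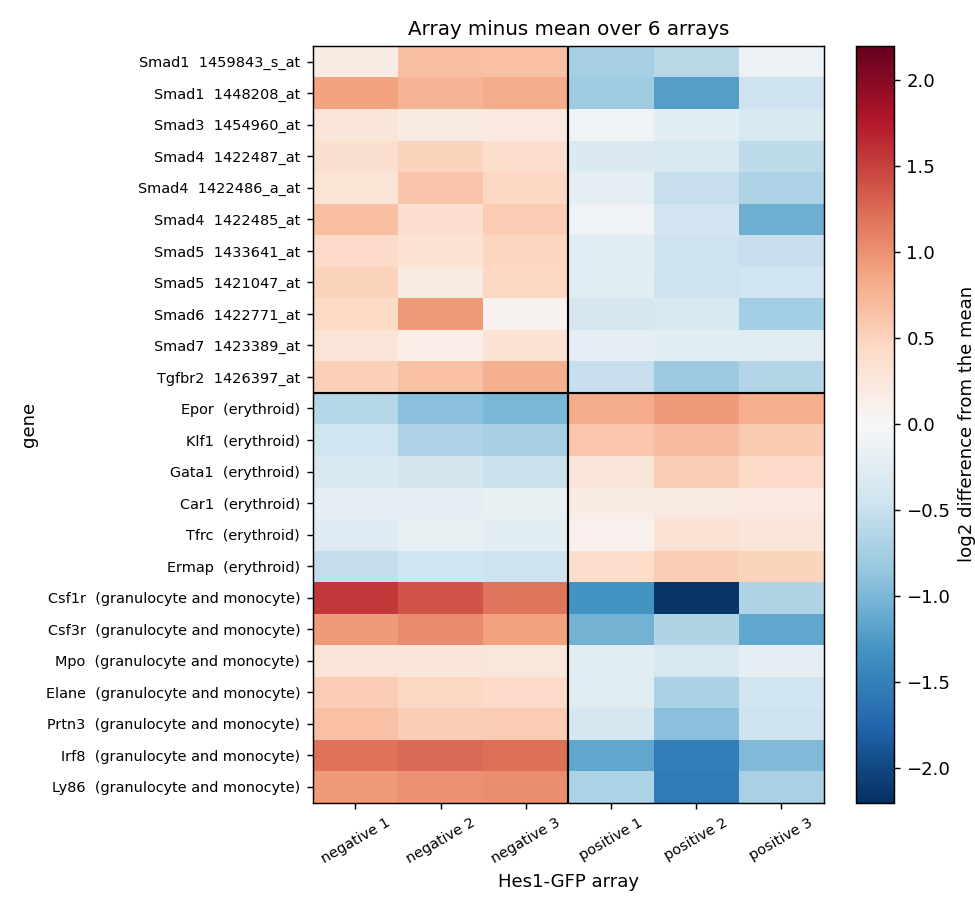
Log2 difference of each array (horizontal axis) from the gene's mean over the 6 arrays, for the 11 called Smad and receptor probe sets (above the line) and for erythroid and granulocyte and monocyte marker genes (below it). The 11 were selected by their calls, all of them lower, so their shared direction follows from the selection. Of all 24 Smad and receptor probe sets, 14 had every GFP-positive array below every GFP-negative array. The 7 granulocyte and monocyte genes are lower in all 3 GFP-positive arrays, and the 6 erythroid genes are higher.

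The rest of the pathway was described with 7 lists holding 102 matched genes, taking for each gene the probe set with the highest mean. Of these, 16 fell and 13 rose (limma, adjusted p under 0.05 over all probe sets), where 9.92% of all genes were called lower and 8.15% higher (18.1% in all). The median log2 difference was 0.05, against 0.11 over all genes. Leaving out N1, P1 or P2 left 6 that rose, leaving out P3 left 5, and leaving out N2 or N3 left 4. Without N3 and P1, 10 fell and 1 rose. Adjusted p-values below are from this limma fit. The lists were chosen with earlier results of these data known, so these p-values are not an independent test.

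Among 14 ligands 1 fell and 2 rose, with a median of 0.29. Tgfb1, the main TGF-beta of blood cells, fell 1.48-fold, from 10.33 ± 0.03 to 9.76 ± 0.21 (adjusted p = 0.0325). Gdf3, a ligand of activin-type receptors, rose 2.35-fold, from 9.03 ± 0.48 to 10.26 ± 0.44 (adjusted p = 0.0466), and both of its probe sets were called higher. Nodal, a ligand of embryonic patterning, rose 1.34-fold at levels around the array median (adjusted p = 0.0284), a log2 difference of 0.43 that was 0.27 with 32 added to each intensity. For Tgfb1 and for Nodal, 1 of 2 probe sets was called. With 1 array left out, Tgfb1 and Nodal stayed called only on leaving out P1 (adjusted p = 0.0250 and 0.0442, otherwise up to 0.0995 and 0.102). Gdf3 stayed called only on leaving out N1 (adjusted p = 0.0284, otherwise up to 0.138).

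Other receptors included some of the largest differences. Of 14 receptors and co-receptors, 4 fell and 1 rose, with a median of -0.26. Acvr1b, a type I receptor of activin, was 10.46, 10.51 and 10.72 in GFP-negative and 9.02, 8.55 and 8.27 in GFP-positive arrays, and fell 3.88-fold (adjusted p = 0.00251). Acvr1, a type I receptor of BMPs, fell 3.06-fold, from 7.35 ± 0.28 to 5.73 ± 0.55 (adjusted p = 0.0171). It was dim in P2 and P3 (5.52 and 5.32), and its log2 difference of -1.62 was -1.18 with 32 added to each intensity. Bmpr2, the BMP type II receptor, fell 2.08-fold (10.56 ± 0.25 to 9.51 ± 0.16, adjusted p = 0.00844). Bambi, a pseudoreceptor without a kinase domain, fell 1.73-fold (adjusted p = 0.0103). The adjusted p of Acvr1 was 0.0516 without N1, 0.0614 without N2 and 0.0593 without P2. Without N3 and P1 it was 0.0784 for Bmpr2 and 0.0911 for Bambi. Limma called 1 of 2 probe sets of Acvr1b, 2 of 3 of Acvr1 and 2 of 3 of Bmpr2. The one that rose, named after its values were seen, was the co-receptor Eng, by 0.53 (adjusted p = 0.0489), which stayed called only on leaving out N1 (adjusted p = 0.0268, otherwise up to 0.147).

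Among 16 genes of ligand latency, activation and antagonism, 2 fell and 2 rose. Nrros, a membrane protein that holds latent TGF-beta on myeloid cells, was 10.09, 9.85 and 9.87 in GFP-negative and 8.91, 8.65 and 8.74 in GFP-positive arrays, and fell 2.25-fold (adjusted p = 0.00226). Fstl3, a secreted antagonist of activin, fell 2.41-fold (10.56 ± 0.19 to 9.29 ± 0.20, adjusted p = 0.00386). Ltbp1, a latent TGF-beta binding protein, rose 2.68-fold (9.04 ± 0.33 to 10.46 ± 0.19, adjusted p = 0.00578), although only 1 of its 3 probe sets was called, and the call was lost without N3 and P1 (adjusted p = 0.05003). Chrd, a BMP antagonist, rose 1.36-fold at levels mostly under the array median (adjusted p = 0.0398), and this call was lost whichever array was left out (adjusted p from 0.0571 to 0.120). Its log2 difference of 0.44 was 0.27 with 32 added to each intensity.

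Of 17 genes for Smad and receptor turnover and anchoring, 4 fell and 2 rose. Fkbp1a, which binds type I receptors, fell 2.12-fold (12.56 ± 0.08 to 11.48 ± 0.17, adjusted p = 0.00289), and 4 of its 5 probe sets were called lower. Nedd4l, a ubiquitin ligase that acts on receptor Smads, fell 1.84-fold (8.61 ± 0.23 to 7.73 ± 0.05, adjusted p = 0.00893; 2 of 6 probe sets called). The related membrane proteins Ldlrad4 and Pmepa1, which hold receptor Smads away from the receptor, fell 2.46-fold and 2.13-fold (adjusted p = 0.0332 and 0.0445). Pmepa1, with 1 of its 3 probe sets called, stayed called only on leaving out P1 (adjusted p = 0.0104, otherwise up to 0.130). Its log2 difference of -1.09 was -0.70 with 32 added to each intensity. Ldlrad4 stayed called only on leaving out P2 or P3 (adjusted p = 0.0347 and 0.0481, otherwise up to 0.102). The rises, named here with their values known, were those of the deubiquitinase Usp15 by 0.80 and the ubiquitin ligase Wwp1 by 0.57. Usp15 was called with any 1 array left out, with an adjusted p of 0.0764 without N3 and P1. Wwp1 stayed called only on leaving out P1 (adjusted p = 0.0226, otherwise up to 0.0926).

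Of 14 nuclear partners and corepressors, 2 fell and 1 rose. Tgif1, a corepressor of Smads, fell 2.21-fold (9.65 ± 0.27 to 8.51 ± 0.18, adjusted p = 0.00823). Mecom, which encodes the Smad3-binding factor Evi1, fell 2.73-fold (10.15 ± 0.07 to 8.70 ± 0.52, adjusted p = 0.0141). Only 1 of the 3 Mecom probe sets was called, and its adjusted p was 0.0556 without N3 and 0.124 without N3 and P1. Foxh1, a DNA-binding partner of Smad2, rose 3.01-fold, from 4.78 ± 0.46 to 6.36 ± 0.19 (adjusted p = 0.00925; 0.0890 without N3 and P1). The GFP-negative arrays were dim for Foxh1, and its log2 difference of 1.59 was 0.93 with 32 added to each intensity. All 3 of its probe sets were called higher. Among 11 genes of the kinase branch that does not use Smads, 0 fell and 2 rose. Tab3, an adaptor of the kinase Tak1, rose 1.71-fold (adjusted p = 0.00685). Map2k4, a kinase of the stress pathway, rose 1.34-fold (adjusted p = 0.0490), with 1 of its 2 probe sets called. This call was lost whichever array was left out (adjusted p from 0.0591 to 0.146).

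Known target genes changed in both directions, 3 of 16 down and 3 up, with a median of 0.16. Tgfbi, an extracellular matrix protein named for its induction by TGF-beta, fell 3.76-fold, from 8.94 ± 0.21 to 7.03 ± 0.50 (adjusted p = 0.00609; 0.0666 without N3 and P1). Gadd45b, a stress response gene, fell 3.37-fold (10.55 ± 0.38 to 8.79 ± 0.19, adjusted p = 0.00391), and 3 of its 3 probe sets were called lower. The cell cycle inhibitor Cdkn1a fell 3.20-fold (adjusted p = 0.0158; 0.0588 without N2 and 0.0528 without N3). Id2, an inhibitor of helix-loop-helix factors and a BMP target, rose 2.03-fold (adjusted p = 0.0483), with 1 of its 3 probe sets called. It stayed called only on leaving out P2 (adjusted p = 0.0116, otherwise up to 0.136). The other 2 rises, named here with their values known, were those of Id3 by 0.44 and Tsc22d1 by 0.40, and neither call was kept when any single array was left out. Of the 7 probe sets of Tsc22d1, 4 were called higher and 2 lower. With 32 added to each intensity the Id3 difference was 0.26. Many of these genes also respond to other signals.

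**Figure D4:**
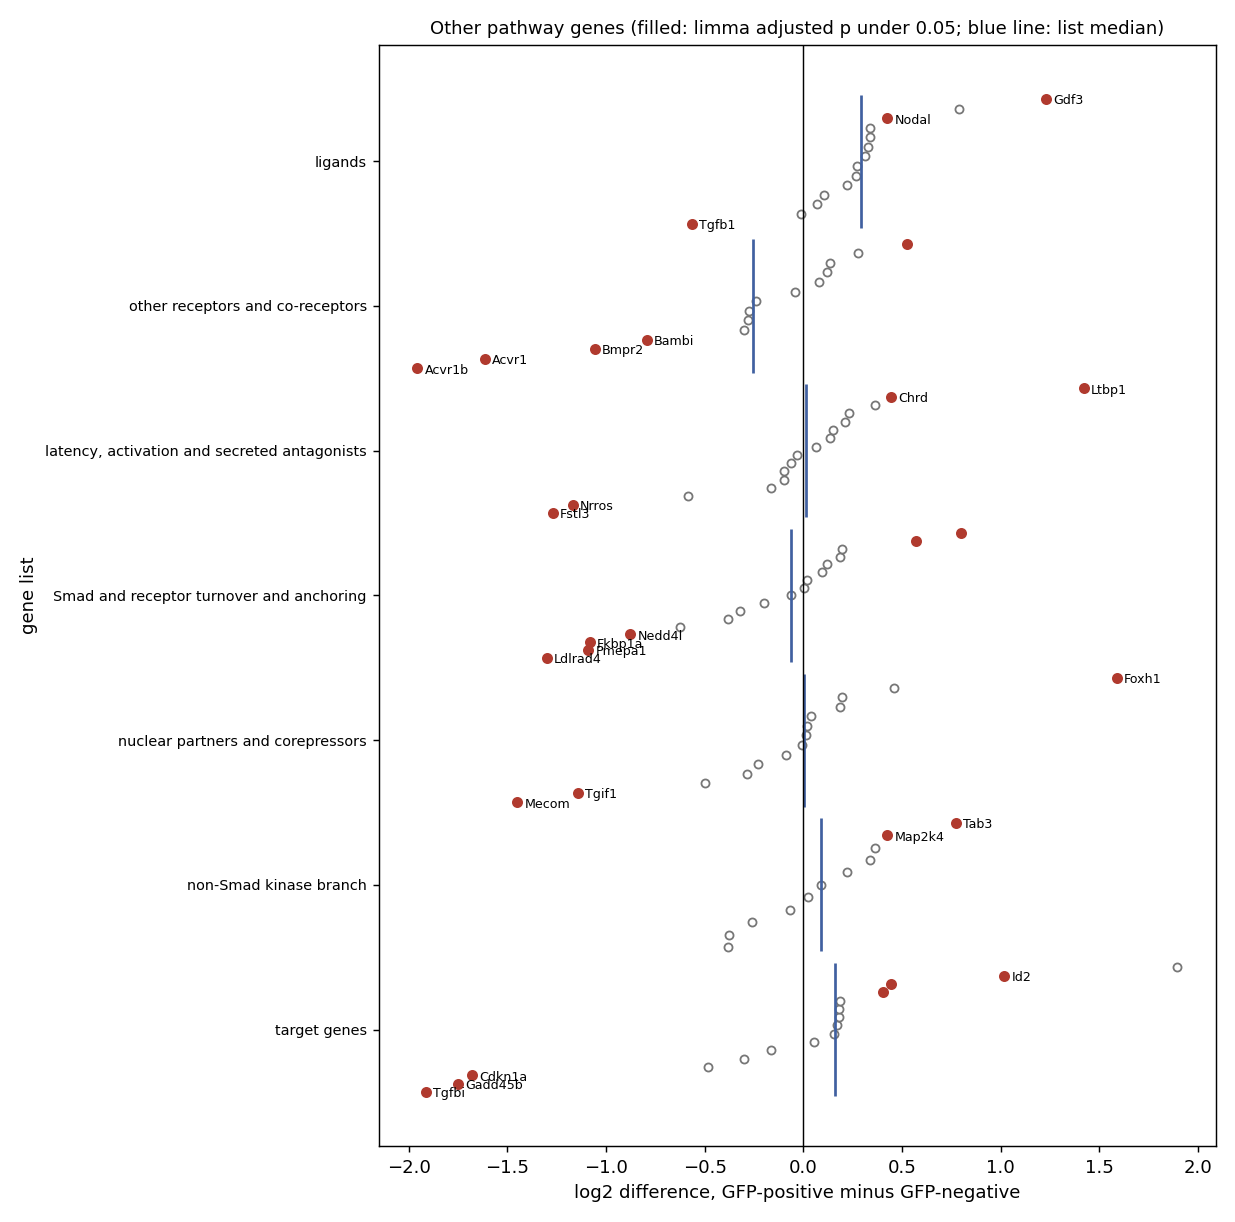
Log2 difference, GFP-positive minus GFP-negative (horizontal axis), of 102 pathway genes in 7 lists (vertical axis), 1 point per gene. Filled points passed the limma threshold, names mark up to 4 of them per list, and the blue line is the list median. Of the filled points 16 lie left of 0 and 13 right of it, with Acvr1b at -1.95 and Tgfbi at -1.91 among the lowest.

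By Pearson correlation of log2 values over the 6 arrays, the genes most like Tgfbr2 were Fchsd2 (r = 0.999), Dab2ip (0.998) and Cyp4v3 (0.998). Of 18192 other genes, 1030 had an r above 0.95 with Tgfbr2. For Smad9, the only gene of the 10 with a higher mean in its brightest probe set, the genes most alike were Rmst (0.995), Cst11 (0.988) and Folr1 (0.986), and 68 genes had an r above 0.95. These are descriptions over 6 arrays of 2 groups, without a test.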

How the data were processed

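The deposited table holds linear intensity per probe set, summarised by the authors with RMA per the submitters' processing notes. RMA yields log2 values, and how these were made linear was not stated. Per the labels, 5 ng of RNA per sample was amplified. No detection calls were used. The 64 array controls among 45101 rows stayed out of all fits. The platform annotation names 1 gene for 34945 probe sets, several for 932 and none for 9160, and all 10 genes described matched the RefSeq table (GRCm38.p6) by gene ID.

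Log2 values were compared with limma 3.58.1 (lmFit, eBayes, 2-sided, no covariate) in R 4.3.3, adjusted by Benjamini-Hochberg over 45037 probe sets. The procedure was tested on simulated data. Named genes were the 10 described, from each pathway list up to 4 called genes of largest absolute change, and the 3 genes most correlated with the genes of largest rise and fall. Of 106 listed pathway genes, 102 matched. The genes and lists were chosen with earlier results of these data known. Alternatives were a replicate block, other priors, normalizations, an offset of 32, the brighter 22518 probe sets, array weights, another probe set per gene, and left-out arrays. Tables used Python 3.11.15 and pandas 2.3.3.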

Additional observations from a re-analysis of the deposited data

How the results depend on the processing

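No value of a called Smad or receptor probe set, and none of the 24 named pathway genes, changed sign under any of the 14 settings tried in which it was tested. For the Smad and receptor probe sets, 322 recomputed differences stayed within the spread between replicates and 6 moved by more. Called lower were 6 to 10 of the 24 with 1 array left out and 4 without N3 and P1. Over all probe sets, 1212 to 2243 were higher and 2192 to 3098 lower with 1 array left out, 681 and 1652 without both arrays, and 5218 were higher with array medians subtracted. Of the other pathway genes, 4 to 6 rose and 11 to 16 fell with 1 array left out, and 1 and 10 without both. Of the 24 named pathway genes, 11 lost their call in at least 1 fit with 1 array left out. Without both N3 and P1, 11 of the 24 kept it. Fewer arrays leave fewer degrees of freedom.

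The replicate numbers were not taken to pair the arrays. Deviations of same-numbered arrays from their group means correlated at 0.023, 0.055 and 0.019, although every array correlated best with its own number, a hint from the data and not the design. With the replicate block, 9 of the 24 Smad and receptor probe sets were called lower, and 7 other pathway genes rose and 14 fell. Dim probe sets limit Smad6, Smad9 and the minor probe sets of Smad3, Tgfbr1 and Tgfbr2.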

Other observations

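The target gene Col1a1, a collagen of connective tissue named after its values were seen, was 4.87, 4.78 and 5.10 in GFP-negative arrays and 6.14, 8.27 and 6.04 in GFP-positive arrays. The difference of 1.90 on the log2 scale had a limma adjusted p of 0.0823, and P2 stood apart within its group. The ligand Bmp4, likewise named after its values were seen, differed by 0.79 (adjusted p = 0.206), from 3.65 ± 0.16 to 4.44 ± 0.78, levels near the low end of the arrays.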
